A study of Mus musculus with 10 samples.

Results

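The genes described here are 10 neighbours of Lef1 on mouse chromosome 3, read in regulatory T cells (Treg, a Foxp3-expressing class of CD4 T cells that dampens immune responses). They are Camk2d, Gar1, Casp6, Ccdc109b, Sec24b, Ostc, Rpl34, Hadh, Sgms2 and Papss1, in the order of the chromosome, and lie within about 5 Mb of Lef1. They were chosen by position and by the difference in FPKM between knockout and wild-type Treg, since results of this contrast were known when they were proposed. FPKM counts fragments per gene, scaled to transcript length and library size. The contrast is therefore given below as a description of the named genes and supports no claim about the region. All 10 were found by symbol among the 32767 genes of each table. Of the 10, 9 reached at least 1 FPKM in at least 2 libraries and entered the fit, and Sgms2 did not.

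The dKO libraries came from Treg of Foxp3cre/wt Tcf7 fl/fl Lef1 fl/fl mice, in which a Cre recombinase driven from Foxp3 acts on loxP-flanked Tcf7 and Lef1. The WT libraries came from Treg of Foxp3cre/wt Tcf7 wt/wt Lef1 wt/wt mice, which carry the same Cre. Each group has 2 libraries, from spleen and lymph nodes on a C57BL/6 background, and the cells were enriched for CD4 and sorted by YFP, the reporter carried with the Cre. The labels give no age, and they do not say whether libraries came from separate animals, so each p-value covers only library-to-library spread, possibly technical. The dKO mice carry loxP-flanked Lef1 on chromosome 3 and the WT mice do not, so loss of the transcription factors and any other difference between these chromosomes cannot be told apart. In bulk RNA, fewer cells of a type and less RNA per cell cannot be told apart either.

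Lef1 encodes a DNA-binding partner of beta-catenin in the Wnt pathway and is closely related to TCF1, the product of Tcf7, and both are best known in T cells for thymic development and the naive state. Genes that lie beside each other on a chromosome need share neither function nor regulation, and these neighbours work in ribosomes, mitochondria, the secretory pathway, lipid and sulphate metabolism, calcium signalling and cell death. Some neighbours share enhancers or a chromatin domain, while many are expressed independently of the gene next door.

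Lef1 itself had 71.6 and 62.8 FPKM in the dKO libraries, against 160 and 167 FPKM in the WT libraries, with no overlap between the groups. Its log2 fold change was -1.27 with a standard error (SE) of 0.09 (limma adjusted p = 0.016). Without WT replicate 1 or 2 the adjusted p was 0.115 and 0.166. Tcf7, on chromosome 11, had 316 and 272 FPKM in dKO Treg, against 456 and 501 FPKM in WT Treg (limma adjusted p = 0.081). Exons outside a deletion still add to these totals, so the values check the labels only in part. Between 10435 and 10678 genes per library reached 1 FPKM. Absolute depth is unknown. Judged by the ratio at which the lowest values piled up, the other 3 libraries held 67.7% to 72.3% of the depth of WT replicate 1.

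Markers of Treg were present in both groups. The 5 Treg markers (Foxp3, Il2ra, Ctla4, Ikzf2 and Tnfrsf18) summed to 610 and 717 FPKM in dKO, against 674 and 628 FPKM in WT. Within this sum Ikzf2 had 27.9 and 46.9 FPKM in dKO, against 77.3 and 60.4 FPKM in WT, and Il2ra had 209 and 249 FPKM in dKO, against 176 and 187 FPKM in WT. The 5 T cell markers summed to 2091 and 2223 FPKM in dKO, against 2096 and 2261 FPKM in WT. Cd4 among them had 187 and 264 FPKM in dKO, against 384 and 411 FPKM in WT. Cd3d had 326 and 351 FPKM in dKO, against 410 and 444 FPKM in WT, and Cd28 was also lower in both dKO libraries. Cd3e had 381.8 and 363.4 FPKM in dKO, against 306.5 and 306.6 FPKM in WT, and Cd3g was also higher in both dKO libraries. The groups did not overlap for Ikzf2, Il2ra or any of the 5 T cell markers, as for 50.8% of all tested genes. Ikzf2, Il2ra and Cd4 did not pass the threshold (limma adjusted p = 0.217, 0.224 and 0.136). The sum of the 6 myeloid markers stood apart in 1 library, with 3.48 and 64.1 FPKM in dKO, against 6.84 and 2.37 FPKM in WT. Lyz2 made 31.9 FPKM of the highest sum, while Itgam had 0.429 and 0.891 FPKM in dKO, against 0.626 and 0.711 FPKM in WT. None of the 6 was at 0 in all 4 libraries. Of 5 B cell markers, 4 stayed under 1 FPKM in every library, and the exception, Cd79b, had 22.5 and 23.3 FPKM in dKO, against 14.1 and 14.6 FPKM in WT. The part of these cells in the results was not tested. Markers of CD8 T cells and NK cells summed to 24.8 and 36.0 FPKM in dKO, against 32.9 and 18.0 FPKM in WT, of which Nkg7 made 22.5 and 31.8 FPKM in dKO, against 30.3 and 15.9 FPKM in WT. Those of plasmacytoid dendritic cells summed to 83.7 and 86.7 FPKM in dKO, against 69.2 and 79.2 FPKM in WT. Bst2 made most of that sum, while Siglech, a defining marker, had 0.115 and 0.535 FPKM in dKO, against 0.115 and 0.105 FPKM in WT. Foxp3 itself had a log2 fold change of 0.08 (SE 0.09, limma adjusted p = 0.69).

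The 10 neighbours are described here gene by gene. Rpl34, Ccdc109b and Camk2d were lower in dKO Treg and passed the threshold over all 10710 genes tested. None of the 9 tested neighbours passed in the other direction. Over all tested genes, 0.700% passed in either direction, 0.383% lower and 0.317% higher in dKO. Since the members were chosen with this contrast in view, nothing is read from their count against that share. The other 6 tested neighbours had log2 fold changes between -0.07 and 0.34, beside a median of 0.013 over all tested genes. An exact permutation of 2 against 2 libraries cannot give a two-sided p under 0.333 for any single gene.

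**Figure D1:**
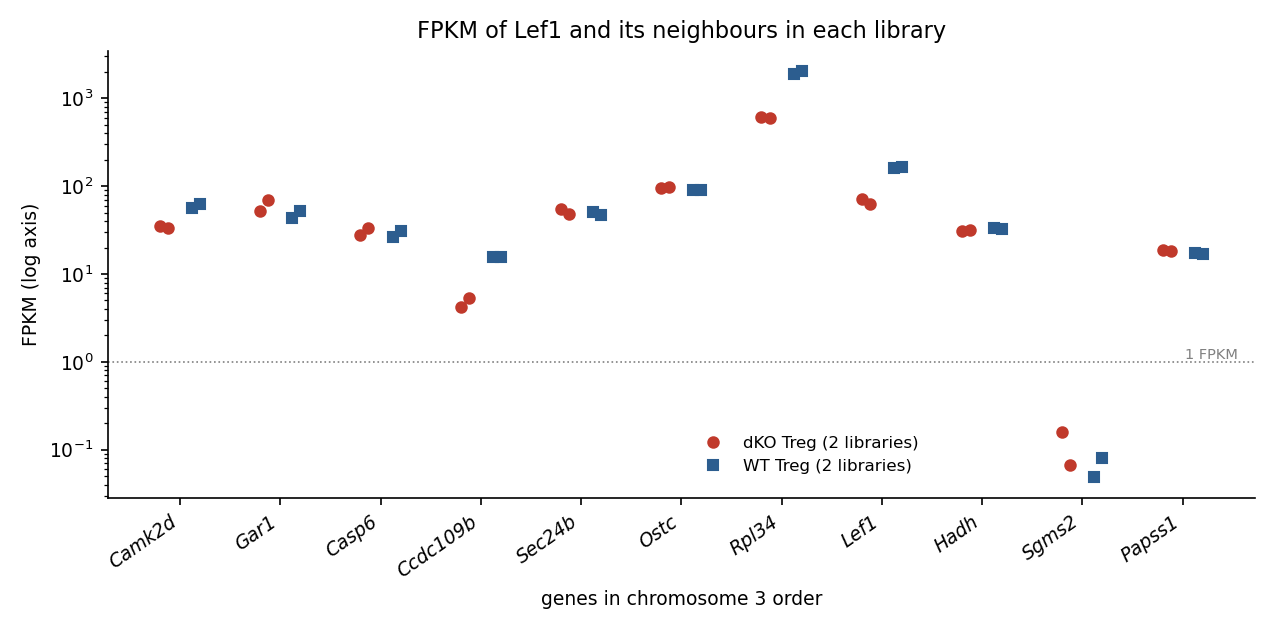
FPKM (log axis) of Lef1 and its 10 neighbours in chromosome order, with 1 point per library, dKO Treg left of WT Treg. Camk2d, Ccdc109b, Rpl34 and Lef1 have both dKO points well below both WT points, and Sgms2 lies under the dotted line at 1 FPKM in all 4 libraries.

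Rpl34 encodes a protein of the large ribosomal subunit. It lies on the minus strand of chromosome 3 from 130726831 to 130730398 (GRCm38), 0.38 Mb from Lef1. It had 605 and 590 FPKM in dKO Treg, against 1892 and 2039 FPKM in WT Treg. Both dKO libraries lay far below both WT libraries, and the gene was 3.29-fold lower in dKO (log2 fold change -1.72, SE 0.07, limma adjusted p = 0.0033). In WT Treg it ranked 41st by mean FPKM among the 10710 tested genes. Leaving out each library in turn gave log2 fold changes between -1.77 and -1.66 and adjusted p between 0.0149 and 0.0284.

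Other large-subunit genes give a scale for this change within each library. Rpl34 stood at 0.538 and 0.532 times the median of 44 tested large-subunit genes in the dKO libraries, against 1.604 and 1.627 times that median in the WT libraries. That median itself was 1125 and 1109 FPKM in dKO, against 1179 and 1253 FPKM in WT. Negative log2 fold changes were found for 43 of the 44 genes (median -0.17, range -0.52 to 0.06), against 5053 of all 10710 genes. The lower end was Rpl39l, a low gene with 1.07 and 1.34 FPKM in dKO, against 3.71 and 1.13 FPKM in WT (SE 0.40). The next lowest was Rpl12 at -0.35. None of the 44 passed the threshold in either direction. The most abundant by mean FPKM were Rpl13a and Rplp1, with log2 fold changes of -0.24 (SE 0.11) and -0.21 (SE 0.08). The log2 fold change of Rpl34 lay outside the range of this list.

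Rpl34 has many processed pseudogenes, which are copies of its messenger RNA inserted elsewhere in the genome. Among GENCODE vM21 transcripts, 10 genes were at least 90% identical to an Rpl34 transcript over at least 200 bases. Of these, 6 are in the tables and the other 4 were not analysed here. The copy named Gm6404 in the tables and Rpl34-ps2 in vM21, singled out after its values were seen, lies on chromosome 13 from 116153781 to 116154134 on the plus strand. Its whole length of 354 bases matches the coding part of Rpl34 with 10 mismatches and no gap, and the longest identical stretch is 106 bases. Bases 20 to 319 of both, counted from the first base of the start codon, hold all 10 mismatches. They are shown because the genes moved in opposite directions, 5′ to 3′, with the mismatched bases in capitals.
Rpl34: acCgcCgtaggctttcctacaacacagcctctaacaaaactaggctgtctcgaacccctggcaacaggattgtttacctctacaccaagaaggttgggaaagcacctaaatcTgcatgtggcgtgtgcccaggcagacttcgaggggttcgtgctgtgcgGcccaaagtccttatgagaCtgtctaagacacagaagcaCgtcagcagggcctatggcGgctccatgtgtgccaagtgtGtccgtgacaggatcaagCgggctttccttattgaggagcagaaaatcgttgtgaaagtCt
Rpl34-ps2: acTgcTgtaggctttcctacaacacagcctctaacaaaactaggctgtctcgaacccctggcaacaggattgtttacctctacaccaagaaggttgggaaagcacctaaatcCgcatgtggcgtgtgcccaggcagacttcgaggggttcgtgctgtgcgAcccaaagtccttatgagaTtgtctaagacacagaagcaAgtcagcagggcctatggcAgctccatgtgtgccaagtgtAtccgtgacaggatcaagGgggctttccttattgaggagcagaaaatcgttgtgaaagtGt

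Gm6404 had 22.8 and 24.97 FPKM in dKO Treg, against 2.57 and 2.10 FPKM in WT Treg. Both dKO libraries lay above both WT libraries, as for 26.6% of all tested genes. Mean FPKM of the copy was 10.2-fold higher in dKO. On the log2(FPKM + 1) scale, where changes of low genes come out too small, the log2 fold change was 2.90 (SE 0.12, limma adjusted p = 0.0033). Leaving out each library in turn gave log2 fold changes between 2.80 and 3.0 and adjusted p between 0.0149 and 0.0284. The mean of Gm6404 was 21.5 FPKM higher in dKO, while that of Rpl34 fell by 1368 FPKM. FPKM is scaled by length, and the vM21 exons cover 354 bases for Gm6404 and 2643 bases for Rpl34. Neither these differences nor a sum of the genes therefore counts reads. The copy Gm10086, 97.7% identical to Rpl34, had 1.77 and 3.06 FPKM in dKO, against 2.05 and 2.81 FPKM in WT, with overlapping groups. Gm7857 and Gm10154 stayed under 1 FPKM in every library, and Rpl34-ps1, 99.4% identical to Rpl34, and Gm14859 were listed at 0 in all 4. Summed with its 6 copies, an addition made after the data were seen, Rpl34 had 631 and 618 FPKM in dKO, against 1897 and 2044 FPKM in WT (log2 fold change -1.66, adjusted p = 0.0039). How reads were shared out between Rpl34 and its copies in each group was not tested, so the levels of both are uncertain.

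**Figure D2:**
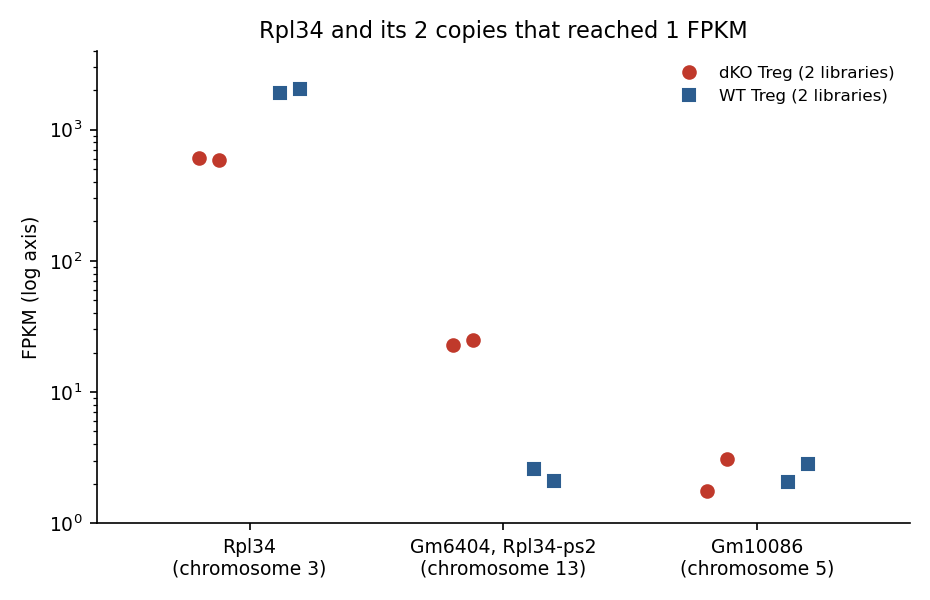
FPKM (log axis) of Rpl34 and of the 2 near-identical copies that reached 1 FPKM in at least 2 libraries, with 1 point per library, dKO Treg left of WT Treg. Rpl34 is lower and Gm6404 higher in both dKO libraries, while the points of Gm10086 overlap.

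Ostc, a subunit of the oligosaccharyltransferase that adds N-linked sugars to proteins in the endoplasmic reticulum, lies next to Rpl34 on the same strand, 17.4 kb away. It had 94.0 and 98.6 FPKM in dKO, against 90.5 and 90.9 FPKM in WT. Both dKO libraries were slightly above both WT libraries, as for 26.6% of all tested genes. The log2 fold change was 0.09 (SE 0.06, limma adjusted p = 0.54), with a 95% interval from -0.08 to 0.25. Of 11 other tested oligosaccharyltransferase genes none passed in either direction, and their median was -0.0153. Tmem258 and Dad1, the most abundant of them, had log2 fold changes of 0.07 (SE 0.08) and -0.13 (SE 0.06).

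Ccdc109b, now named Mcub, encodes a subunit of the mitochondrial calcium uniporter that lowers the channel's activity when it replaces the pore subunit. It lies on the minus strand from 129914960 to 129970206, 1.14 Mb from Lef1. It had 4.21 and 5.36 FPKM in dKO Treg, against 15.6 and 15.7 FPKM in WT Treg. Both dKO values lay below both WT values, as for 24.2% of all tested genes. Mean FPKM of the gene was 3.26-fold lower in dKO. On the log2(FPKM + 1) scale, where changes of low genes come out too small, the log2 fold change was -1.53 (SE 0.13, limma adjusted p = 0.026). Without WT replicate 1 or WT replicate 2 the adjusted p was 0.19 and 0.222, while the log2 fold change was -1.53 and -1.52.

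No other tested part of the uniporter passed the threshold. Mcu, the pore subunit and named after its values were seen, had 11.2 and 12.2 FPKM in dKO, against 11.7 and 11.6 FPKM in WT, so the ratio of Ccdc109b to Mcu was 0.376 and 0.441 in dKO, against 1.32 and 1.35 in WT. FPKM is scaled by transcript length, which allows this comparison between genes. Smdt1, which links the pore to its calcium sensors, had 92.3 and 109 FPKM in dKO, against 101 and 94.99 FPKM in WT. Vdac1, the outer membrane channel, had a log2 fold change of 0.04 (SE 0.08). The 9 tested uniporter and partner genes had a median log2 fold change of 0.04 and a range of -0.18 to 0.12, beside 0.013 for all genes.

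Ccdc109b lies between Casp6 and Sec24b. The 3′ ends of Casp6 and Ccdc109b face each other 856 bases apart, and 12.6 kb separate Ccdc109b from Sec24b. Casp6, an effector caspase that cleaves nuclear lamins, had 27.7 and 33.7 FPKM in dKO, against 26.1 and 30.7 FPKM in WT. Sec24b, which picks cargo for the COPII vesicles that leave the endoplasmic reticulum, had 55.0 and 47.6 FPKM in dKO, against 50.8 and 46.7 FPKM in WT. The groups overlapped for both genes. Their log2 fold changes were 0.11 (SE 0.13, 95% interval -0.24 to 0.45) and 0.07 (SE 0.10, 95% interval -0.19 to 0.33). The sign turned for Casp6 without dKO replicate 2 or without WT replicate 1, and for Sec24b without dKO replicate 1.

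Among 9 tested caspases and partners of Casp6 none passed in either direction, with a median of 0.04 and a wide range of -1.50 to 0.48. The log2 fold change was 0.06 (SE 0.09) for Casp8, the initiator of death receptor signalling, and 0.04 (SE 0.07) for Casp2. The 11 tested COPII genes had a median of -0.07, with none past the threshold. The log2 fold change was 0.01 (SE 0.07) for Preb, which activates the COPII GTPase, and -0.08 (SE 0.07) for Sec24c, a paralog of Sec24b.

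Gar1, on the minus strand from 129824912 to 129831396, belongs to the H/ACA ribonucleoproteins that guide pseudouridylation of ribosomal RNA and form part of telomerase. It had 51.7 and 69.3 FPKM in dKO, against 43.1 and 51.5 FPKM in WT. The lower dKO value was close to the higher WT value, and the log2 fold change of 0.34 (SE 0.17, 95% interval -0.10 to 0.78) missed the threshold (limma adjusted p = 0.38). It was 0.13 without dKO replicate 2 and 0.55 without dKO replicate 1. Its copy Gm13350, 90.8% identical, was listed at 0 in all 4 libraries. Of 8 other tested snoRNP genes none passed in either direction, and the median was 0.0248. Nop58 and Nop56, core proteins of the box C/D particles, had log2 fold changes of 0.03 (SE 0.09) and 0.18 (SE 0.09).

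Camk2d encodes the delta chain of calcium/calmodulin-dependent protein kinase II. It lies on the plus strand from 126596302 to 126846326, 4.26 Mb from Lef1, and was the most distant of the 10. It had 35.4 and 33.2 FPKM in dKO Treg, against 56.8 and 62.2 FPKM in WT Treg. Both dKO values lay below both WT values, as for 24.2% of all tested genes. The gene was 1.73-fold lower in dKO (log2 fold change -0.78, SE 0.08, limma adjusted p = 0.045). Leaving out any 1 library ended the call, with adjusted p between 0.0558 and 0.249 and log2 fold changes between -0.84 and -0.71. Its body overlaps several unverified transcripts, and the antisense gene Gm15551, which was listed at 0 in all 4 libraries.

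Camk2d gave 62.9% and 63.4% of the summed FPKM of the 4 Camk2 genes in the dKO libraries, against 78.9% and 79.5% in the WT libraries. Its paralogs, named here after their values were seen, did not pass the threshold. Camk2g had 14.2 and 12.97 FPKM in dKO, against 11.9 and 11.8 FPKM in WT. Camk2b had 5.76 and 5.50 FPKM in dKO, against 1.61 and 2.56 FPKM in WT (log2 fold change 1.12, SE 0.18, adjusted p = 0.099). Camk2a, the remaining paralog, had 0.938 and 0.693 FPKM in dKO, against 1.66 and 1.62 FPKM in WT (log2 fold change -0.54, SE 0.17, adjusted p = 0.227). It entered the fit only through the WT libraries, where it was higher. Calm2, a calmodulin gene, had 152 and 162 FPKM in dKO, against 157 and 168 FPKM in WT, with overlapping groups (log2 fold change -0.05, SE 0.07). None of the 10 tested genes of the list passed in either direction, with a median of 0.04 and a range of -0.54 to 1.12.

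On the other side of Lef1 lie Hadh, Sgms2 and Papss1, none of which passed the threshold. Hadh, the mitochondrial dehydrogenase of the third step of beta oxidation, is the nearest of all, with its 3′ end facing that of Lef1 at 9.06 kb. It had 30.7 and 31.9 FPKM in dKO, against 33.4 and 32.5 FPKM in WT. The dKO values were slightly under both WT values, as for 24.2% of all tested genes, with a log2 fold change of -0.07 (SE 0.07, 95% interval -0.25 to 0.11, limma adjusted p = 0.66). Of 17 tested beta oxidation genes none passed in either direction, with a median of -0.06 and a range of -0.50 to 0.24. Hadha and Hadhb, the chains of the trifunctional protein, had log2 fold changes of 0.10 (SE 0.09) and -0.12 (SE 0.07).

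Papss1, which makes the activated sulphate used by sulphotransferases, lies 0.34 Mb from Lef1. It had 18.6 and 18.5 FPKM in dKO, against 17.2 and 17.1 FPKM in WT. The libraries of each group were close together, and both dKO values lay above both WT values, as for 26.6% of all tested genes. The log2 fold change was only 0.11 (SE 0.07, 95% interval -0.09 to 0.30, limma adjusted p = 0.52). None of 6 tested sulphate genes passed in either direction, with a median of -0.09 and a range of -0.46 to 0.29. Slc35b3 and Slc35b2, which carry activated sulphate into the Golgi, had log2 fold changes of 0.29 (SE 0.08) and -0.01 (SE 0.08).

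Sgms2, a sphingomyelin synthase of the plasma membrane, was near the lowest measurable level. It had 0.159 and 0.0678 FPKM in dKO, against 0.0483 and 0.0816 FPKM in WT, with overlapping groups, and was not tested. Its paralog Sgms1, the Golgi enzyme, named here after its values were seen, had 17.9 and 13.2 FPKM in dKO, against 14.3 and 11.9 FPKM in WT. Ugcg and Sptlc2, the most abundant genes of the list, had log2 fold changes of 0.19 (SE 0.10) and 0.05 (SE 0.07). Of 15 tested sphingolipid genes none passed in either direction, with a median of 0.05 and a wide range of -1.09 to 0.43. Negative values were found for 5 of the 15. The lowest was Cers6, named after its values were seen, with 1.86 and 2.57 FPKM in dKO, against 5.33 and 6.32 FPKM in WT (limma adjusted p = 0.094).

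**Figure D3:**
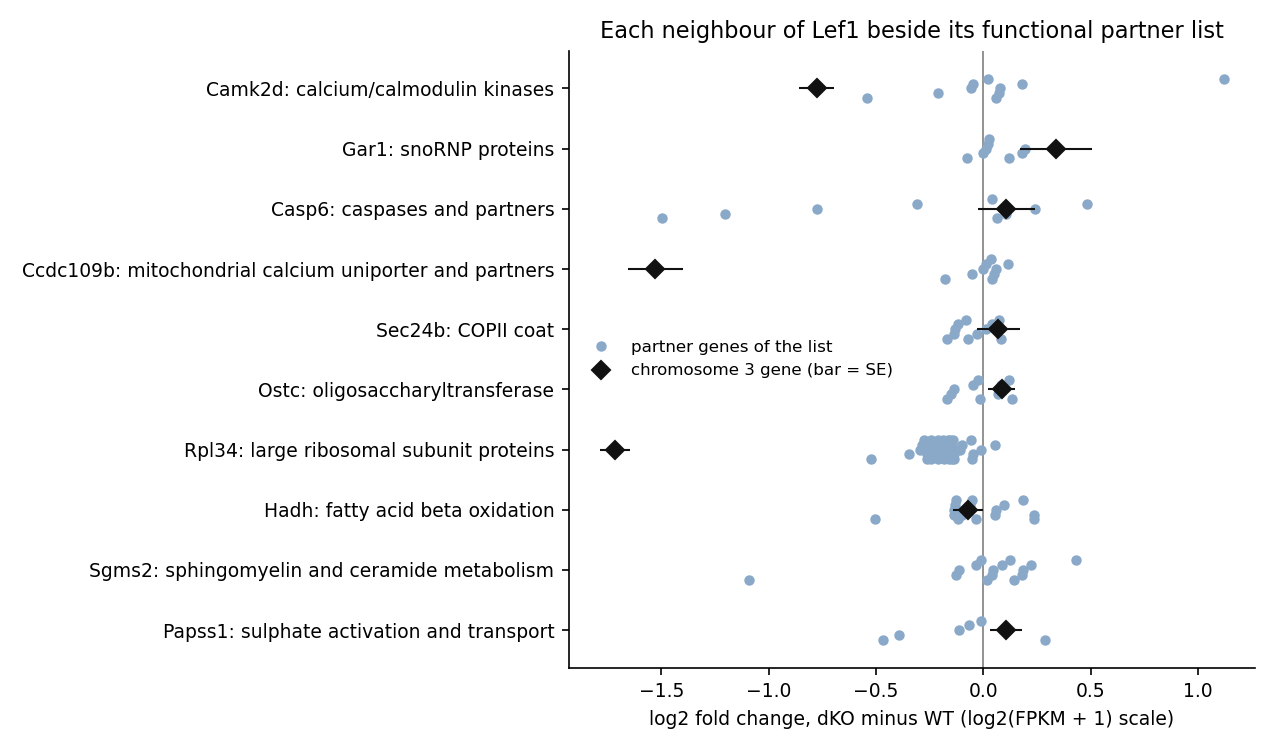
Log2 fold change (dKO minus WT, log2(FPKM + 1) scale) of each tested neighbour (diamond, bar = SE) beside the tested genes of its partner list (circles). Rpl34, Ccdc109b and Camk2d lie below and Gar1 above the range of their lists (Gar1 at 0.13 without dKO replicate 2, inside its range), while Casp6, Sec24b, Ostc, Hadh and Papss1 lie within theirs. Sgms2 was not tested and has no diamond.

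Within 5 Mb of Lef1 the tables hold 80 other genes, of which 29 were tested, and 20 of those are not among the 10 neighbours. None of these 20 passed the threshold. Of the 20, 18 were negative on the log2 scale (median -0.09, range -1.02 to 0.06), beside 5053 of all 10710 tested genes (median 0.013). Both dKO values were under both WT values for 9 of the 20, against 24.2% of all tested genes, and for none were both above, against 26.6%. An unadjusted p under 0.05 was reached by 6 of the 20, all with lower values in dKO, beside 17.3% of all tested genes, 8.63% with lower values. The 6, named after their values were seen, were Bank1, 5730508B09Rik, Elovl6, Manba, Cisd2 and Ube2d3. Their log2 fold changes ran from -1.02 for Bank1 to -0.21 for Ube2d3, with limma adjusted p from 0.138 to 0.217. Bank1, an adaptor known from B cells, had 0.192 and 0.844 FPKM in dKO, against 2.28 and 1.75 FPKM in WT. It reached 1 FPKM in the WT libraries alone, so it entered the fit, and these counts, only through the group where it was higher. The region was proposed with this contrast known, so the counts support no claim about it.

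Counting both sets, 3 of the 29 tested genes in the window passed, which is 10.3%, beside 0.700% of all tested genes. Within 10 Mb the same number passed of 52 tested, which is 5.77%. This count holds the genes for which the region was proposed. Just beyond the window, Ppp3ca, a calcineurin catalytic subunit 5.45 Mb away, had 38.6 and 36.0 FPKM in dKO, against 25.6 and 27.3 FPKM in WT, and Mettl14, an RNA methyltransferase subunit 7.72 Mb away, had 12.7 and 10.6 FPKM in dKO, against 10.1 and 12.4 FPKM in WT. Around Tcf7, the other targeted gene, 74 genes were tested within 5 Mb, 38 with a negative log2 fold change, and 1 passed (1.35%). That gene was Gm25291, a small nucleolar RNA listed at 0 in both dKO libraries, against 7.65 and 10.4 FPKM in WT. It too entered the fit only through the WT libraries, where it was higher. On the far side of Papss1, at 1.44 Mb, Aimp1, a scaffold protein of the tRNA synthetase complex, had a log2 fold change of -0.03 (SE 0.09).

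**Figure D4:**
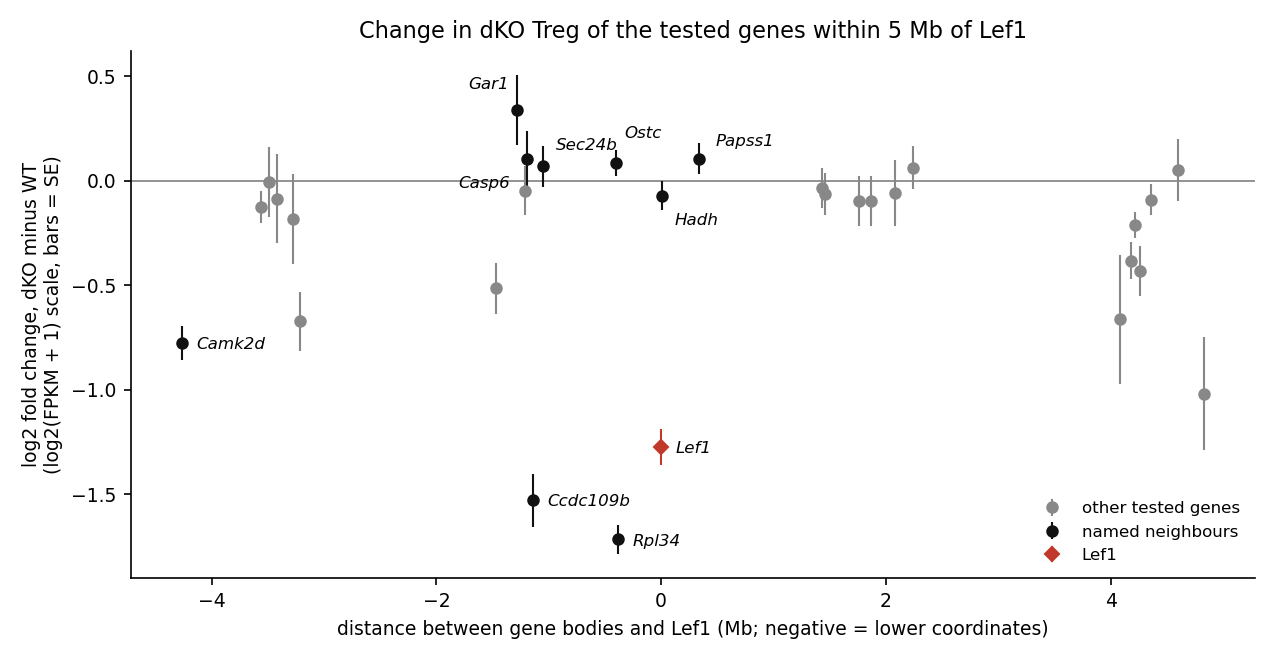
Log2 fold change (dKO minus WT, bars = SE) of each tested gene within 5 Mb of Lef1 against the distance between gene bodies in Mb, with negative distances toward lower coordinates. Rpl34 and Ccdc109b lie at -1.72 and -1.53, Camk2d at -0.78. Of the remaining 26 points other than Lef1, 19 lie below 0, the lowest of them Bank1 at -1.02. Over all 10710 tested genes 5053 lie below 0.

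The promoters of the 3 lower neighbours are shown because the targeted transcription factors bind DNA. RefSeq start sites (GRCm38.p6) were found for 9 of the 10 neighbours. Where several starts are annotated, as for Rpl34, Papss1 and Sgms2, the one nearest the 5′ end of the vM21 gene was used and the others were not searched. The starts of Camk2d and Sec24b lie 649 and 646 bases from that end, inside the vM21 gene body. The 250 bases before the start were searched on both strands for CTTTGA and CTTTGT, the core letters of the TCF and LEF motif. These letters were found in 27.6% of the 32851 promoters of the table. They were absent from this window of Rpl34, Ccdc109b and Camk2d, and of the other 6 neighbours only Casp6 held them, once. The windows are chr3:130730399-130730648 for Rpl34 and chr3:129970207-129970456 for Ccdc109b, both on the minus strand, and chr3:126596701-126596950 for Camk2d and chr3:129901165-129901414 for Casp6, both on the plus strand. They read 5′ to 3′, with the motif in capitals.
Rpl34: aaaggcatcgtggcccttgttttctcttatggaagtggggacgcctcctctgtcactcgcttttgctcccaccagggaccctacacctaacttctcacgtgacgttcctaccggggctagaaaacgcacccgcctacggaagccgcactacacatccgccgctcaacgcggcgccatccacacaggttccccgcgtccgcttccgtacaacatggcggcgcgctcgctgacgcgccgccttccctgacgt
Ccdc109b: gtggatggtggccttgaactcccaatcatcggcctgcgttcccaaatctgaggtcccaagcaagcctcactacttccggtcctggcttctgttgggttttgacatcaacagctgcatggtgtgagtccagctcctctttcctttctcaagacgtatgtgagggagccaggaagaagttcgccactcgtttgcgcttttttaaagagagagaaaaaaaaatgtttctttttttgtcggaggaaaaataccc
Camk2d: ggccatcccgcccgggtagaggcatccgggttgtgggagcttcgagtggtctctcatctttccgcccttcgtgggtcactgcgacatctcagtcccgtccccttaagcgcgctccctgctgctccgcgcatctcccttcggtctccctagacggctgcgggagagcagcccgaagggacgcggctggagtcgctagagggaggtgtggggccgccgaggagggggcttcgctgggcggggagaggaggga
Casp6: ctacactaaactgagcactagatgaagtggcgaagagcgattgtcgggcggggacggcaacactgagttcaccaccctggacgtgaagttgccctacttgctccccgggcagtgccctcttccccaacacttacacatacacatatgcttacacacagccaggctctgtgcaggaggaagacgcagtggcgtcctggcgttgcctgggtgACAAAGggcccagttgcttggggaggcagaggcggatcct
A match is only a description of these letters, and no match says nothing of binding elsewhere.

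**Figure D5:**
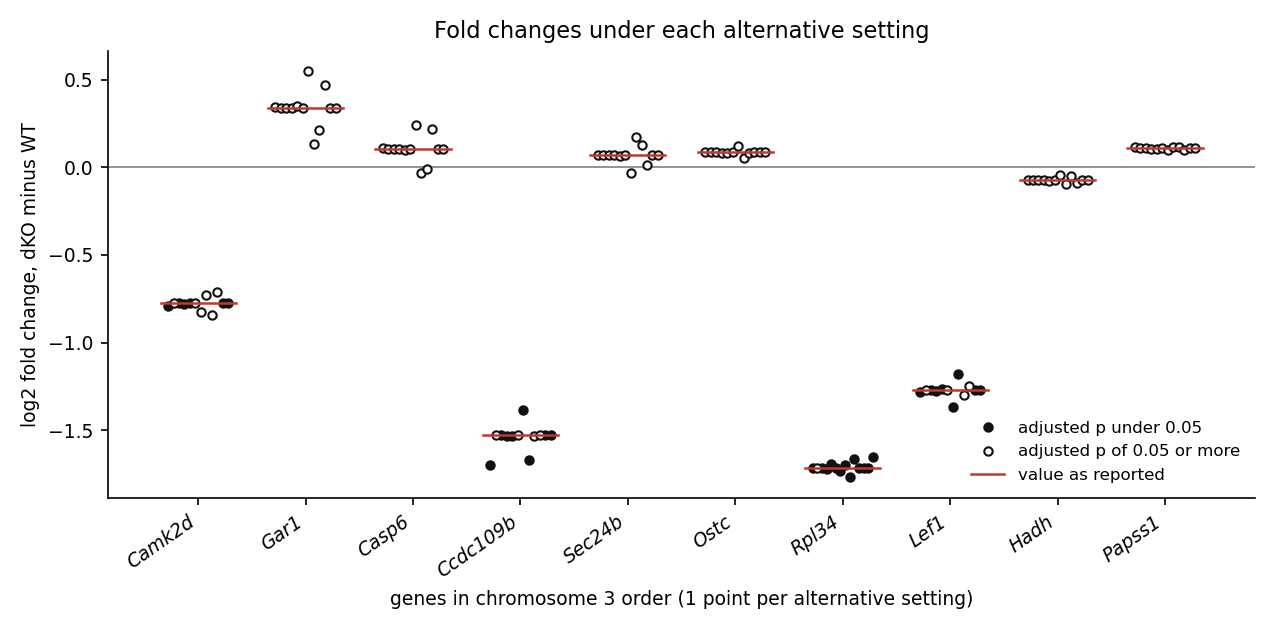
Log2 fold change (dKO minus WT) of Lef1 and its 9 tested neighbours under each alternative setting, 1 point per setting. Points are filled where the limma adjusted p was under 0.05, and the reported value is a red line. The settings of Rpl34 include its sum with rows named Rpl34-ps, which could not differ, since these were listed at 0 in every library. Rpl34 kept its call in 13 of 14 settings, Ccdc109b in 8 of 12 and Camk2d in 6 of 12, while no setting gave a call for the other 6.

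The fold changes of the 3 lower neighbours varied less between settings than their calls did. In part this was fixed in advance, since filters on genes and the replicate block leave a gene's own fold change as it was. Over all alternatives the log2 fold change ranged from -1.77 to -1.66 for Rpl34, from -1.70 to -1.38 for Ccdc109b and from -0.84 to -0.71 for Camk2d. With the replicate number as a block, Rpl34 stayed past the threshold (adjusted p = 0.0292), while Ccdc109b (0.074), Camk2d (0.123) and Lef1 (0.0537) did not. Without a filter on low values none of these 4 genes passed.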

How the data were processed

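RNA of sorted Treg was sequenced, per the labels' protocols, from RNeasy Plus Mini extracts with TruSeq Stranded mRNA libraries. The authors deposited FPKM per gene; STAR, Cuffdiff and GRCm38 are named by the submitters' processing notes. The sources used here give no version, annotation, strand setting or scaling. Each table holds 32767 genes and 32767 blank rows. In identifier order it ends before 22945 of the 55450 genes of GENCODE vM21 (GRCm38), which were not analysed here. Coordinates came from vM21, which holds 32503 of the identifiers, and 27 names turned into dates by a spreadsheet were restored. The subset tables of the series were not used, because their identifiers do not belong to the values.

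Values were tested with limma 3.58.1 (R 4.3.3) on log2(FPKM + 1) over 10710 genes (1 FPKM or more in 2 or more libraries), with a variance trend, two-sided, at a Benjamini-Hochberg adjusted p of 0.05 (2 residual and 2.85 prior degrees of freedom). On this scale changes of low genes come out too small. The fit was tested on simulated data whose changed genes moved by more than any member here, so calls of smaller changes were not tested. Copies were found with blastn 2.17.0. The members and lists were chosen with earlier results of these data known. Named genes are the 10 members, the targeted genes, Foxp3, the 3 nearest tested genes on each side of Lef1, genes past the threshold near Lef1 or Tcf7, Rpl34 pseudogenes and the 2 most abundant genes of each partner list, of which 1 is not reported here.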

Additional observations from a re-analysis of the deposited data

How the results depend on the processing

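With 75 genes past the threshold in all (34 higher and 41 lower in dKO; 1858 at an unadjusted p under 0.05), leaving out each library in turn gave 14 to 136 genes, 1 to 2 of the named neighbours, 1 to 2 genes within 5 Mb of Lef1 and 0 to 1 near Tcf7. With no filter on low values, 6 genes passed in all (6 higher and 0 lower), 0 named neighbours, 0 near Lef1 and 0 near Tcf7. With the replicate number as a block, 21 genes passed, 1 named neighbour and 1 near Lef1; the numbers are not said to pair libraries, and the deviations of equally numbered libraries had a correlation of 0.0141. Without genes listed at 0 in any library, 117 passed and 0 near Tcf7, 171 passed among protein-coding genes alone, and 0 near Tcf7 passed at a mean of at least 5 FPKM. The cause was not tested. Of 176 single-gene values under alternatives, 157 kept their side of the threshold, 17 lost a call, 2 gained one (Tcf7, adjusted p = 0.0491 and 0.0342) and 0 called values changed sign. Filters on genes and the replicate block leave a gene's own fold change as it was. The sum of Rpl34 with rows named Rpl34-ps, listed at 0, could not differ either. Scaling moved the median log2 fold change of all genes by less than 0.1. Windows of 10 Mb held as many genes past the threshold as those of 5 Mb (3 near Lef1 and 1 near Tcf7), out of more tested. A group of 2 libraries limits every value here, and a left-out library leaves 1 library assumed to vary like the others.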
